A study of Rattus norvegicus with 86 samples.

Results

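Expression of neurotransmitter and G protein receptor genes was examined in a medial prefrontal area, the prelimbic cortex (PL), of 80 Heterogeneous Stock (HS) rats. HS rats are an outbred population descended from inbred founder strains, so each rat carries its own mixture of founder chromosomes, and all rats here were naive, with no treatment, transgene or deletion. The members are the genes of the expression table whose name starts with one of the usual receptor prefixes (GABA-A, glutamate, glycine, acetylcholine, serotonin, dopamine, adrenergic, adenosine, histamine, opioid, neuropeptide Y and somatostatin receptors, and the GPR and ADGR series). The rule found 46 of 17250 genes. Only 3292 genes (19.1%) could be given a name. Names came from part of the study's lists of genes with an expression quantitative trait locus (eQTL) in these rats, a variant associated with a gene's expression. The paper reports eQTLs for more genes than could be named here. Of the 46 members, 29 were named in the list for the infralimbic cortex and 19 in the list of genes with an eQTL in only 1 region, with Npy2r and Chrm1 in both. The members are therefore not a full census of receptors, and receptor genes without a name were not analysed here. The prefix rule also took 5 genes that encode no receptor, namely the glutaredoxins Glrx2, Glrx3 and Glrx5, the mitochondrial protease Htra2 and the neurite outgrowth protein Gprin3, which left 41 receptors and GPR-named membrane proteins.

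The samples were 40 male and 40 female adult rats of a narrow age range, with 1 polyA RNA library from bilateral PL tissue of each, dissected from frozen sections. Each rat belonged to 1 of 5 rat batches, as the labels call them: 14 rats in batch 2 (11 males, 3 females), 23 in batch 3 (10 and 13), 26 in batch 4 (11 and 15), 1 female in batch 5 and 16 in batch 6 (8 and 8). What a batch stands for is not given in the sources used here. A further 6 labelled samples had been removed by the authors and were not analysed here. Values are log2 of the adjusted read count plus 1, called the log2 level below, and a difference of 1 is a doubling of the adjusted count plus 1. The adjusted counts summed to between 16957388 and 20613398 per rat, a total set by the adjustment and not by sequencing depth, and between 2.02% and 5.66% of genes were at 0 in a rat. The levels are not divided by transcript length, so they are compared between rats and never between genes. Among marker genes with a name, Neurod6 of excitatory neurons was at 11.08 ± 0.16 (SD, n = 80) and Slc32a1, the vesicular GABA transporter of inhibitory neurons, at 10.25 ± 0.28. Neither the oligodendrocyte nor the striatum marker list had a member with a name, so those cells were not checked here. In bulk tissue, fewer cells of a type and less RNA per cell cannot be told apart.

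Receptors turn a released transmitter into a response in the receiving cell by 2 main routes. Ligand-gated channels (GABA-A, kainate, nicotinic and 5-HT3 receptors) are assembled from several subunits and open within milliseconds. Metabotropic receptors are G protein-coupled receptors (GPCRs), which act more slowly through heterotrimeric G proteins: the Gi/o family lowers cyclic AMP, Gs raises it and Gq activates phospholipase C. In the medial prefrontal cortex these receptors set the balance of excitation and inhibition and carry the actions of acetylcholine, serotonin, histamine and neuropeptides on pyramidal cells and interneurons.

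Nearly all of these genes were expressed in every rat. A read was counted in all 80 rats for 44 members, while Chrm5 was at 0 in 4 rats and Chrnb4 in 1. The mean log2 level was at least 5 for 41 of 46 members and for 13025 of 17250 genes. The share of all genes counted in every rat is not given here. The SD over rats had a median of 0.25 over members and 0.26 over all genes, and 28 of 46 members had an SD above the median of the 500 genes with the nearest mean level. Members carry a name because of an eQTL found in these rats, itself a difference between rats, so that count is only a description. No member split into separate high and low rats, a pattern called for 2.45% of all genes (422 of 17250).

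**Figure D1:**
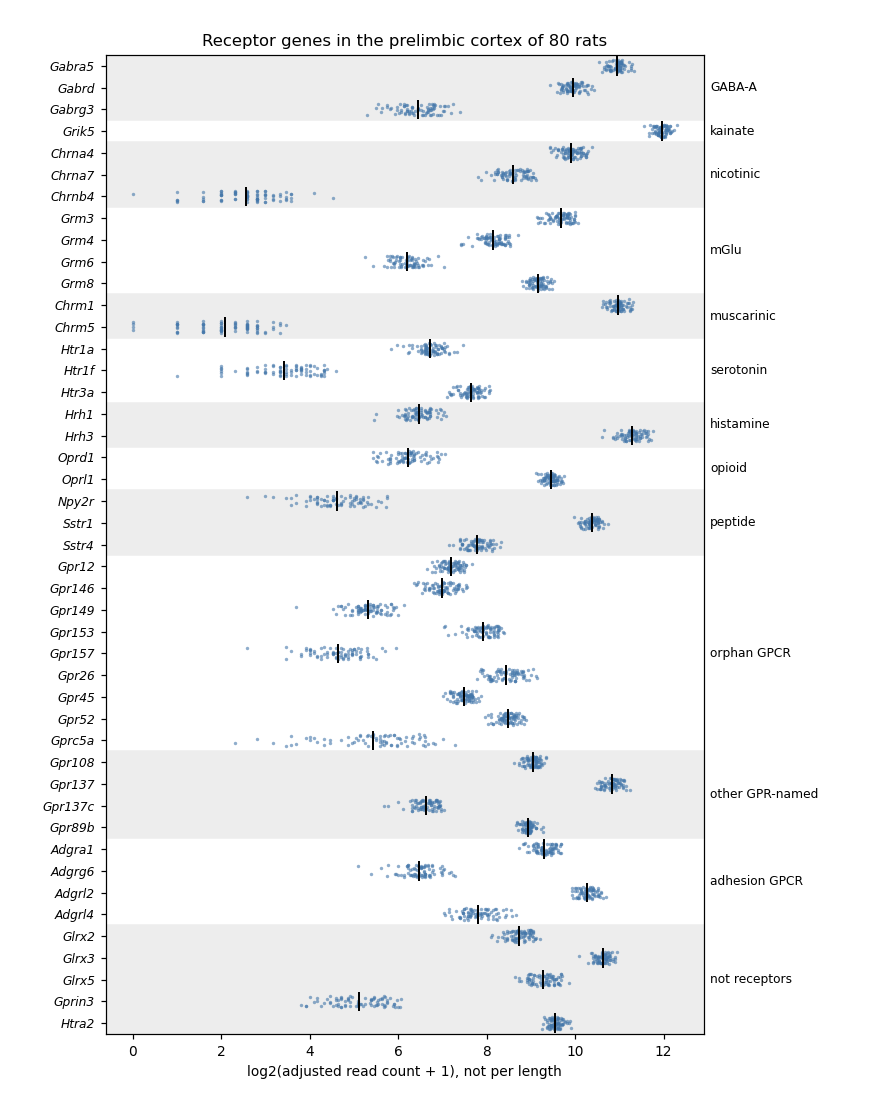
Log2 level (x axis, log2 of the adjusted read count plus 1, not per length) of 45 members (y axis, grouped by role) in the prelimbic cortex; each point is 1 of 80 rats and the black line is the mean. Most members lie in a narrow band, while Gprc5a, Chrm5, Chrnb4, Htr1f and Npy2r are spread over several log2 units.

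The widest spread belonged to Gprc5a, an orphan receptor known as a retinoic acid-induced gene. Its log2 level had a lowest value of 2.32, a median of 5.61 and a highest value of 7.28, with an SD of 1.02, above 95.6% of the 500 genes nearest in mean. Gprc5a was also the only member named for an eQTL found in PL alone, that is, in these same samples, so its wide spread is a description. The next 4 in SD were all low genes: Chrm5 (2.07 ± 0.82, mean ± SD, range 0 to 3.46), Chrnb4 (2.56 ± 0.76, range 0 to 4.52), Htr1f (3.42 ± 0.72, range 1 to 4.58) and Npy2r (4.61 ± 0.63, range 2.58 to 5.75). Their median adjusted counts were 3.5, 5, 10.5 and 23 reads, and beside the 500 genes of nearest mean their SDs stood above 9.20%, 17%, 49.0% and 77.6%. Except for Npy2r, these genes were thus no more spread than others of their level.
At the other end, Gpr89b, a Golgi pH regulator rather than a receptor, varied least (8.94 ± 0.12, range 8.67 to 9.29). It was followed by the nociceptin receptor Oprl1 (9.45 ± 0.14), Htra2 (9.55 ± 0.14), the kainate subunit Grik5 (11.96 ± 0.14) and Gpr108 (9.04 ± 0.15).

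Members varied together from rat to rat. After sex and batch were removed, Pearson's r was computed over 79 rats (the lone rat of batch 5 was left out) for all 1035 pairs of members, with 100000 permutations of rats within batches. Of these pairs, 167 had an adjusted p under 0.05, 116 with a positive and 51 with a negative r, and Spearman's rho gave 161. Of the 167 pairs, 123 had the same sign in all 4 batches. In size, these correlations were close to those of the whole table: an absolute r of at least 0.286, the smallest called, was reached by 18.4% of member pairs and by 17.4% of all pairs of genes in the table. An absolute r of at least 0.5 was reached by 3.19% and 3.42%. Removing the first 5 principal components of the whole table left 21 called pairs, so the count depends on whether variation shared by many genes is kept, and which variation that is was not tested.

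The closest pair was Grik5-Hrh3, a kainate receptor subunit and the H3 histamine receptor, with r = 0.783 and rho = 0.777 (adjusted p = 0.000287 and 0.00037, each from the smallest p that these permutations can give, 1e-05). Within batches 2, 3, 4 and 6, r was 0.629, 0.686, 0.785 and 0.947, and without the 2 rats farthest from the median of Grik5 it was 0.739. With the 5 principal components removed it was still 0.586. The next pair, Gabrd-Gpr137, the δ subunit of the GABA-A receptor and a lysosomal membrane protein, had r = 0.699 and rho = 0.674 (adjusted p = 0.000287), with 0.647, 0.770, 0.606 and 0.769 within batches and 0.679 without the 2 farthest rats, but 0.196 once the principal components were removed. The M1 receptor gene joined the first pair, with r = 0.651 for Chrm1-Grik5 (rho = 0.643, without the 2 farthest rats 0.641) and 0.630 for Chrm1-Hrh3 (rho = 0.613, without the 2 farthest rats 0.603), both with an adjusted p of 0.000287. In batch 2, however, these were 0.088 and 0.172. The pair after these was Adgra1-Sstr4, an adhesion GPCR and a somatostatin receptor, at r = 0.626 (rho = 0.655, adjusted p = 0.000287, 0.588 without the 2 farthest rats, 0.313, 0.654, 0.693 and 0.690 within batches). Chrm1, Grik5, Hrh3 and Gpr137 made up 6 pairs, each called, with r of at least 0.567, but with the 5 principal components removed the pairs Chrm1-Gpr137, Gpr137-Grik5 and Gpr137-Hrh3 were at -0.105, 0.040 and 0.071, and Chrm1-Grik5 and Chrm1-Hrh3 at 0.366 and 0.401. Chrm1 and Grik5 had 19 called partners each, Hrh3 17 and Gpr137 16, while Adgrg6, Chrm5, Gpr149 and Npy2r had none.
Negative pairs were led by Chrm1-Glrx2 (r = -0.564) and Adgrl2-Gabrd (r = -0.561), both with an adjusted p of 0.000287. Within batches 2, 3, 4 and 6 these were -0.560, -0.091, -0.677 and -0.697 for the former and -0.171, -0.701, -0.784 and -0.185 for the latter, and with the 5 principal components removed they were -0.152 and -0.258. Glrx2 had 17 called partners, 16 of them negative.

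The 13 pairs chosen by family or class of receptor were not among the close pairs. Not all of them share a ligand, and other pairs of members that do were not counted apart. Of the 13 pairs, 0 had an adjusted p under 0.05 by r or by rho, and 3 had an unadjusted p under 0.05 by r. Beside them, 167 of all 1035 pairs had an adjusted p under 0.05 by r and 161 by rho, with a median absolute r of 0.145. The 13 pairs are too few to tell their share apart from that of all pairs. The nearest were Sstr1-Sstr4 (r = 0.275, adjusted p = 0.0778), Oprd1-Oprl1 (r = 0.253, adjusted p = 0.0987) and Grm3-Grm8 (r = 0.249, adjusted p = 0.115). Among GABA-A subunits, r was -0.215 for Gabra5-Gabrd and -0.193 for Gabra5-Gabrg3, with adjusted p-values of 0.183 and 0.251. The nicotinic pairs Chrna4-Chrna7 and Chrna4-Chrnb4 were at 0.130 and 0.079. For the remaining cholinergic pairs, r was -0.061 for Chrm1-Chrm5 and 0.077 for Chrm1-Chrna7. Hrh1-Hrh3 gave 0.062, Htr1a-Htr1f 0.197, Npy2r-Sstr1 0.192 and Grm4-Grm8 -0.167.

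**Figure D2:**
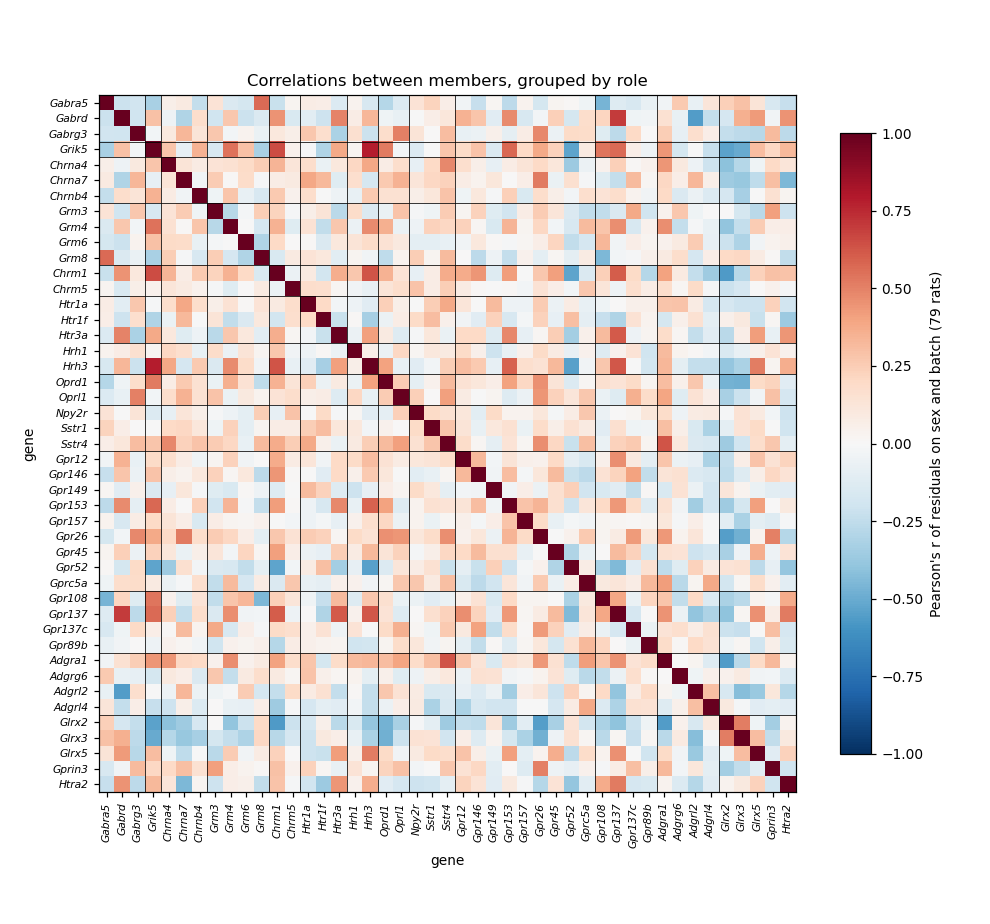
Pearson's r (colour, from -1 in blue to 1 in red) between 45 members over 79 rats after sex and batch were removed; both axes list the members by role, and black lines divide the roles. The strongest cells, such as Grik5-Hrh3 at 0.783 and Gabrd-Gpr137 at 0.699, lie off the role blocks along the diagonal, as most cells do, and Grik5 is alone in its role.

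Because the genes of these 2 closest pairs vary together, their upstream sequences are shown side by side. Sequences are from RefSeq (build GRCr8, a reference strain's genome and not that of any rat here), as the 250 bases before the start of the gene, 5′ to 3′ on the gene's strand, and 36 of 46 members had an entry. Capitals mark GC boxes, GGGCGG or its reverse complement CCGCCC, where zinc finger factors such as SP1 can bind.
Grik5 (chr1:89794910-89795159, minus strand): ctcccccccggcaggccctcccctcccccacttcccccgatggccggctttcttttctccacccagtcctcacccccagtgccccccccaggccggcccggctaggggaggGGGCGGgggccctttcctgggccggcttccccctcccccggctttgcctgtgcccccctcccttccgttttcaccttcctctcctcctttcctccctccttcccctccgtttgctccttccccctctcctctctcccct
Hrh3 (chr3:187574260-187574509, minus strand): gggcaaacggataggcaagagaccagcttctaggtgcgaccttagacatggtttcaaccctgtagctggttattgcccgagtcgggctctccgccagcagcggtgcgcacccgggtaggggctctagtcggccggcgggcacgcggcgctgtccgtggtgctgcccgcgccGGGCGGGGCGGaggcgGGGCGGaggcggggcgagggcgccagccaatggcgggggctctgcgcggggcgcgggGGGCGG
Gabrd (chr5:171252710-171252959, minus strand): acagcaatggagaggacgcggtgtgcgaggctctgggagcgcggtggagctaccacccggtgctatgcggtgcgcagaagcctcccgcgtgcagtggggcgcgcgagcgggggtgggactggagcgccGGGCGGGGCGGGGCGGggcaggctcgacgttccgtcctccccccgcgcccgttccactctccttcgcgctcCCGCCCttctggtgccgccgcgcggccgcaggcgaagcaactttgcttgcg
Gpr137 (chr1:213561833-213562082, minus strand): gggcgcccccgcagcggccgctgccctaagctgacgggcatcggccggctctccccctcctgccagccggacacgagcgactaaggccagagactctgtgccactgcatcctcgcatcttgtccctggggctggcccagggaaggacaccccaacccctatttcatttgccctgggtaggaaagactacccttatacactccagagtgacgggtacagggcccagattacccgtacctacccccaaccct
The pairs did not share this feature evenly: there was 1 GC box before Grik5, 4 before Hrh3, 4 before Gabrd and 0 before Gpr137, counting overlapping matches on both strands. The GC content was 70.8%, 73.6%, 74.0% and 64.0%. Over the 36 members the GC content had a median of 63.6% (27.2% to 79.6%), beside 52.0% over 27457 promoters, and a GC box was present in 52.8% of members and 32.4% of all promoters. A TATA box (TATAAA or TTTATA) was present in 5.56% of members and 13.1% of promoters, the E box CACGTG in 8.33% and 5.79%, and the cyclic AMP response element TGACGTCA in 0.0% and 1.7%. These are matches of letters in a reference sequence and not sites shown to be bound, and members had to have an eQTL to carry a name. The 27457 promoters were also not limited to the 17250 genes of the expression table. Members are thus set beside genes that may not be expressed in PL.

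Of the labelled factors sex and rat batch, only rat batch gave called members. The moderated F-test over batches, with sex in the model, called 25 of 46 members (54.3%), where 59.4% of all genes were called. Batch accounted for a median R2 of 0.138 of a member's variance, and at most for 0.567 (Glrx5). To give the difference a direction, batches 4 and 6 (42 rats) were compared with batches 2 and 3 (37 rats), a split known from earlier results of these data. This difference, called the batch difference below, passed the test for 28 members (60.9%), beside 55.4% of all genes. Of these, 14 were higher in batches 4 and 6 (28.8% of all genes were) and 14 lower (26.6%). For no member did the 2 groups of rats fail to overlap, which held for 0.0% of all genes. Differences of at least 0.25 were called for 11 members, against 25.7% of all genes. The shares of members called are thus near those of the whole table, and the account that follows is of which receptors lay on which side. Whatever else differed between the batches cannot be told apart from batch. Beside these differences, Slc32a1 had a batch difference of -0.42 (adjusted p = 1.12e-13), the oligodendrocyte lineage gene Olig2 -0.31 (adjusted p = 4.59e-05), the microglial genes C1qa -0.19 (adjusted p = 0.00147) and P2ry12 0.27 (adjusted p = 0.000162) and the fibroblast gene Dcn 0.26 (adjusted p = 0.00641). By contrast, Neurod6 was at 0.01 (adjusted p = 0.843), the interneuron genes Vip at -0.0073 (adjusted p = 0.899) and Dlx2 at -0.00065 (adjusted p = 0.996), the astrocyte gene Aldh1l1 at -0.075 (adjusted p = 0.187) and the red cell gene Hbb at -0.34 (adjusted p = 0.088). The part of these cells in the receptor differences was not tested.

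**Figure D3:**
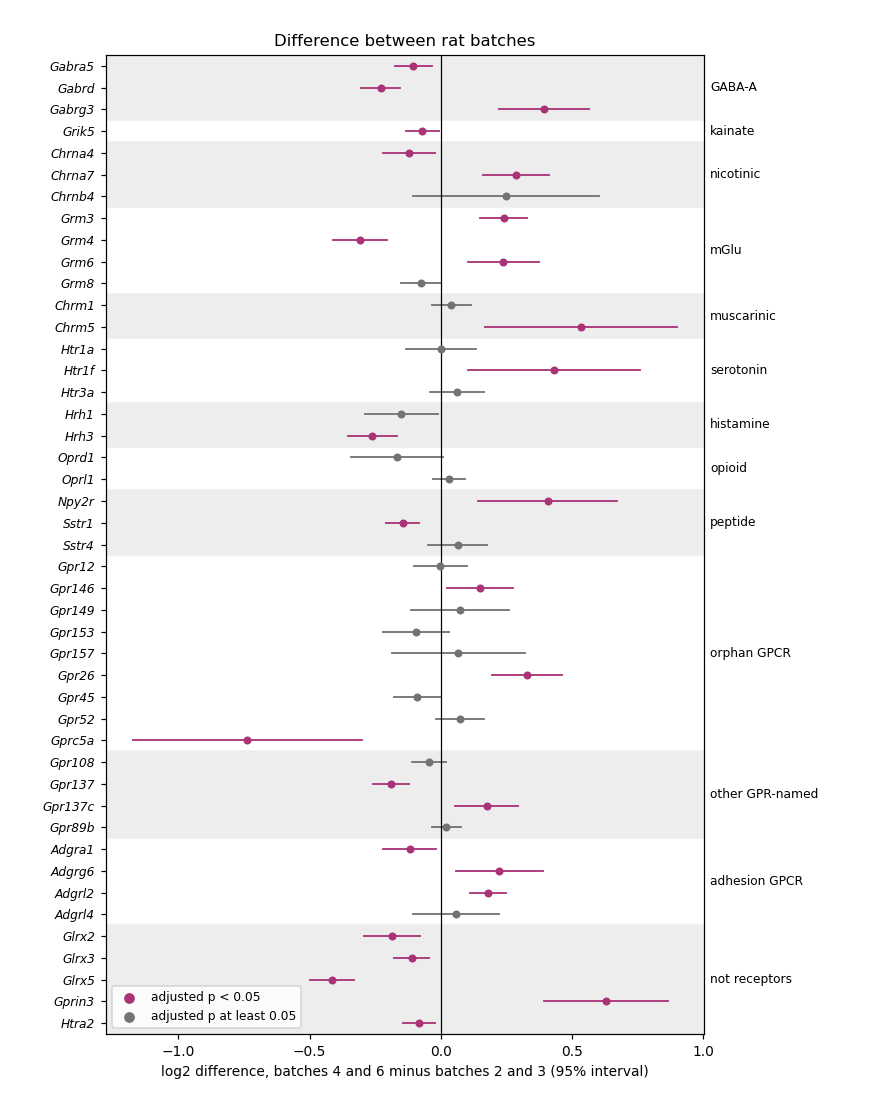
Batch difference of 45 members (x axis, log2, batches 4 and 6 minus batches 2 and 3, fitted with sex; y axis, members grouped by role); points are estimates, bars are 95% intervals and purple marks an adjusted p under 0.05. Of the 45 members shown, 13 lie to the right and 14 to the left with a called difference, with members of most families on both sides.

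GABA-A receptors are the chloride channels of fast inhibition, and the 3 subunit genes described here passed the batch test, in opposite directions. Gabrd encodes the δ subunit of extrasynaptic receptors, which carry tonic inhibition. Its lowest, median and highest log2 levels were 9.72, 10.04 and 10.43 in batches 2 and 3 and 9.43, 9.84 and 10.10 in batches 4 and 6. The groups overlapped, but 38 of 42 rats in batches 4 and 6 were at or below the median of the others, and the batch difference was -0.23 (95% interval -0.30 to -0.15, adjusted p = 1.91e-07). Gabra5, the α5 subunit that is also largely extrasynaptic, was lower by a smaller amount, -0.10 (95% interval -0.17 to -0.035, adjusted p = 0.0082), and batch means of 11.04, 10.96, 10.96 and 10.83 in batches 2, 3, 4 and 6 show that batch 6 was the low one. Comparing batch 4 with batch 3 alone ended this call for Gabra5 (adjusted p = 0.969).
Gabrg3, the γ3 subunit, went the other way, with lowest, median and highest levels of 5.29, 6.25 and 6.81 in batches 2 and 3 and 5.75, 6.71 and 7.39 in batches 4 and 6. The difference was 0.39 (95% interval 0.22 to 0.56, adjusted p = 7.06e-05), with 32 of 42 rats above the median of the others, and batch means of 6.35, 6.12, 6.74 and 6.49 put batch 3 lowest and batch 4 highest.

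Among the other channel subunits, Grik5 encodes GluK5, a kainate receptor subunit that needs a partner subunit to form a working channel. Its level ranged from 11.68 to 12.23 in batches 2 and 3 and from 11.57 to 12.30 in batches 4 and 6. The batch difference was -0.071 (95% interval -0.13 to -0.0087, adjusted p = 0.0474). That call was lost after quantile normalization (difference -0.019, adjusted p = 0.617) and without the variance trend (adjusted p = 0.0525).
The nicotinic subunits parted. Chrna7, which forms calcium-permeable receptors on its own, had lowest, median and highest levels of 7.80, 8.44 and 9.04 in batches 2 and 3 and 8.18, 8.79 and 9.11 in batches 4 and 6, a difference of 0.29 (95% interval 0.16 to 0.41, adjusted p = 8.45e-05), with 36 of 42 rats above the median of the others. Chrna4, the α4 subunit of the high-affinity nicotine site, was lower, at -0.12 (95% interval -0.22 to -0.021, adjusted p = 0.0344), a call that batch 4 against batch 3 alone did not give (-0.05, adjusted p = 0.514). Chrnb4, whose β4 subunit is best known from the habenula and autonomic ganglia, was near its detection limit and had a difference of 0.25 (95% interval -0.11 to 0.60, adjusted p = 0.242). Htr3a, the serotonin-gated channel found on a class of cortical interneurons, had a level of 7.64 ± 0.23 and a difference of 0.061 (95% interval -0.042 to 0.17, adjusted p = 0.326).

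Metabotropic glutamate receptors of groups II and III couple to Gi/o, and 3 of the 4 members passed the test. Grm4, a presynaptic group III receptor, had lowest, median and highest levels of 7.98, 8.28 and 8.71 in batches 2 and 3 and 7.42, 8.01 and 8.46 in batches 4 and 6. Its means were 8.36 ± 0.19 in batch 2, 8.25 ± 0.16 in batch 3, 8.08 ± 0.26 in batch 4, 7.94 ± 0.26 in batch 6, so that batches 4 and 6 both lay below batches 2 and 3, and its difference was -0.31 (95% interval -0.41 to -0.20, adjusted p = 4.27e-07).
Grm3, a group II receptor of astrocytes and neurons, went the other way: the corresponding values were 9.14, 9.54 and 10.001 and 9.42, 9.82 and 10.07. In batches 4 and 6, 40 of 42 rats exceeded the median of batches 2 and 3, and the difference was 0.24 (95% interval 0.15 to 0.33, adjusted p = 6.23e-06). The astrocyte gene Aldh1l1 gave -0.075 (adjusted p = 0.187) in the same fit. Grm6, best known from retinal bipolar cells, was low (6.19 ± 0.31) and higher in batches 4 and 6 by 0.24 (95% interval 0.10 to 0.37, adjusted p = 0.00203), a call that ended after quantile normalization (adjusted p = 0.0625). Grm8, also of group III, had a difference of -0.077 (95% interval -0.15 to -0.0015, adjusted p = 0.0775) and was called under quantile normalization (adjusted p = 0.0363) and median centring (adjusted p = 0.0351).

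Of the receptors for acetylcholine, serotonin and histamine that act through G proteins, the histamine H3 receptor gave the clearest shift. Hrh3 is a Gi/o-coupled receptor on histaminergic and other nerve endings. Its lowest, median and highest levels were 11.03, 11.44 and 11.77 in batches 2 and 3 and 10.62, 11.17 and 11.65 in batches 4 and 6. Only 3 of 42 rats of batches 4 and 6 were above the median of the others, and the difference was -0.26 (95% interval -0.35 to -0.17, adjusted p = 1.67e-06). Hrh1, the Gq-coupled H1 receptor, had a difference of -0.15 (95% interval -0.29 to -0.012, adjusted p = 0.0602), and its call depended on the scaling, passing after quantile normalization (-0.24, adjusted p = 0.00275), after median centring (adjusted p = 0.0387) and after the rank-based transformation (adjusted p = 0.0324).
Chrm1, the M1 muscarinic receptor of cortical pyramidal cells, had a level of 10.97 ± 0.16 and a difference of 0.039 (95% interval -0.035 to 0.11, adjusted p = 0.386). Its relative Chrm5, known from midbrain dopamine neurons, was counted at a few reads per rat, with lowest, median and highest levels of 0, 2 and 3.17 in batches 2 and 3 and 0, 2.58 and 3.46 in batches 4 and 6. The fit gave 0.53 (95% interval 0.17 to 0.90, adjusted p = 0.0103), but between batches 4 and 3 the difference was 0.087 (adjusted p = 0.774). On a pseudocount scale such values understate or distort a low gene's change.
The serotonin receptor Htr1a, the Gi/o-coupled 5-HT1A receptor, had batch means of 6.67, 6.80, 6.69 and 6.74 and a difference of 0.0004 (95% interval -0.13 to 0.13, adjusted p = 0.996). Htr1f, a low Gi/o-coupled relative, had a difference of 0.43 (95% interval 0.10 to 0.76, adjusted p = 0.021), with 27 of 42 rats of batches 4 and 6 above the median of the others and no call between batches 4 and 3 alone (adjusted p = 0.359).

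Peptide receptors of this set are Gi/o-coupled and inhibitory. Sstr1, a somatostatin receptor, had lowest, median and highest levels of 10.14, 10.47 and 10.74 in batches 2 and 3 and 9.98, 10.33 and 10.65 in batches 4 and 6, with a difference of -0.14 (95% interval -0.21 to -0.082, adjusted p = 5.83e-05). The fit of females alone did not call Sstr1 (-0.11, adjusted p = 0.134). Its relative Sstr4 (7.78 ± 0.25) had a difference of 0.063 (95% interval -0.051 to 0.18, adjusted p = 0.358). Npy2r, the presynaptic Y2 receptor for neuropeptide Y, had batch means of 4.16 ± 0.70 in batch 2, 4.59 ± 0.54 in batch 3, 4.56 ± 0.57 in batch 4, 5.03 ± 0.50 in batch 6, so the low value of batch 2 and the high value of batch 6 carried its difference of 0.41 (95% interval 0.14 to 0.67, adjusted p = 0.00691). Between batches 4 and 3 the sign turned, at -0.024 (adjusted p = 0.917). Of the opioid receptors, the delta receptor Oprd1 had a difference of -0.17 (95% interval -0.34 to 0.0068, adjusted p = 0.0978) that passed after quantile normalization (-0.26, adjusted p = 0.00709). The nociceptin receptor Oprl1 gave 0.032 (95% interval -0.029 to 0.093, adjusted p = 0.384); its batch means of 9.44, 9.41, 9.53 and 9.40 differed over batches (F-test, adjusted p = 0.0123) with batch 4 the highest, and batches 4 and 3 alone differed by 0.12 (adjusted p = 0.00599).

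**Figure D4:**
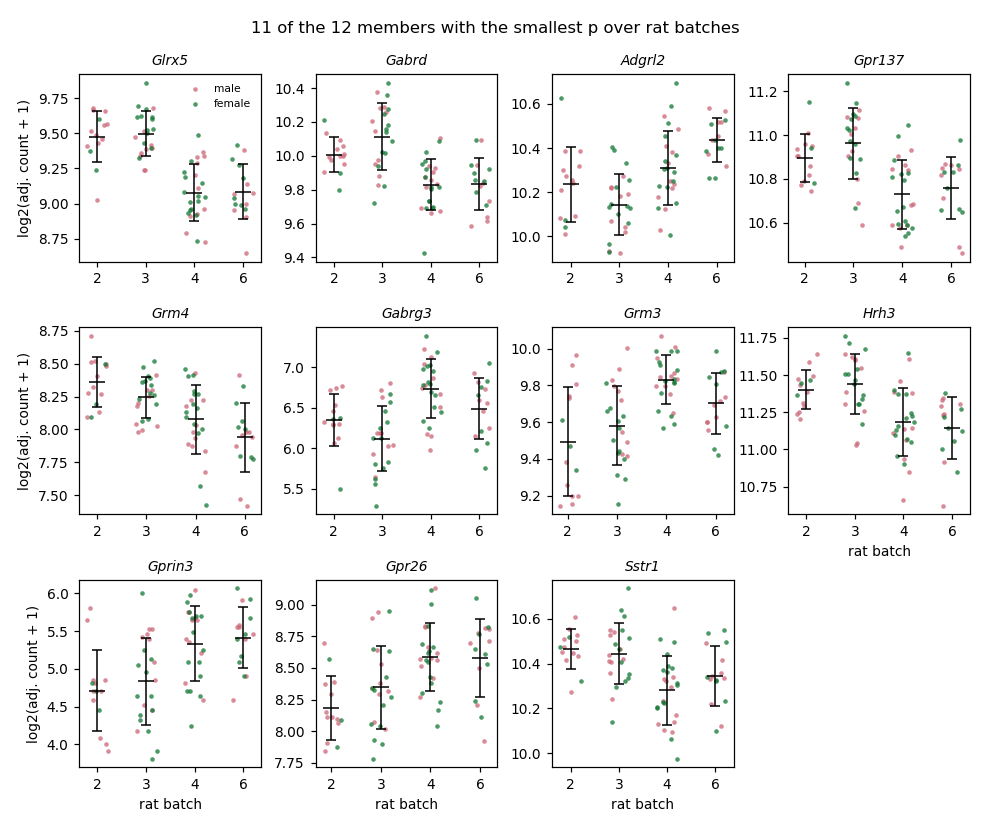
Log2 level (y axis, log2 of the adjusted read count plus 1) by rat batch (x axis) of 11 of the 12 members with the smallest p over batches; points are rats (red male, green female), and the black bars are the mean ± SD of 14, 23, 26 and 16 rats. Glrx5, Gabrd, Gpr137, Grm4, Hrh3 and Sstr1 sit lower, and Adgrl2, Gabrg3, Grm3, Gprin3 and Gpr26 higher, in batches 4 and 6, with overlapping rats in every panel.

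Orphan GPCRs have no settled natural ligand, and 3 of the 9 members passed the batch difference test. Gpr26, a receptor with constitutive activity that is expressed mainly in brain, had lowest, median and highest levels of 7.78, 8.29 and 8.95 in batches 2 and 3 and 7.92, 8.61 and 9.13 in batches 4 and 6. It was higher in the latter by 0.33 (95% interval 0.19 to 0.46, adjusted p = 2.45e-05). Gprc5a was lower by the largest amount of any member, with values of 3.46, 5.67 and 7.02 in batches 2 and 3 and 2.32, 5.32 and 7.28 in batches 4 and 6. These groups overlapped widely, the difference was -0.74 (95% interval -1.17 to -0.30, adjusted p = 0.00299), and batch 6, with a mean of 4.78 ± 1.18, lay below the others. Batch 4 against batch 3 gave -0.27 (adjusted p = 0.415), and the fit of females alone -0.44 (adjusted p = 0.278).
Gpr146 was higher by 0.15 (95% interval 0.022 to 0.28, adjusted p = 0.0406), a call lost after median centring (adjusted p = 0.0683) and quantile normalization (adjusted p = 0.336), and between batches 4 and 3 alone the difference was 0.014 (adjusted p = 0.897). The other 6 did not pass: Gpr12 and Gpr52, both Gs-coupled with constitutive activity, gave -0.0017 (adjusted p = 0.98) and 0.073 (adjusted p = 0.176). Gpr45 gave -0.09 (adjusted p = 0.0796), and passed after quantile normalization (adjusted p = 0.00749) and median centring (adjusted p = 0.0414). Gpr149 gave 0.073 (adjusted p = 0.527), Gpr153 -0.096 (adjusted p = 0.201), which passed between batches 4 and 3 alone (-0.20, adjusted p = 0.0228), and Gpr157 0.067 (adjusted p = 0.681), though Gpr157 differed over batches by the F-test (adjusted p = 0.0475) with means of 4.59, 4.68, 4.42 and 4.99 in batches 2, 3, 4 and 6.
Several GPR-named proteins are membrane proteins of inner compartments rather than receptors at the cell surface. Gpr137, a lysosomal protein, had lowest, median and highest levels of 10.59, 10.94 and 11.24 in batches 2 and 3 and 10.46, 10.78 and 11.05 in batches 4 and 6, a difference of -0.19 (95% interval -0.26 to -0.12, adjusted p = 2.14e-06). Its paralogue Gpr137c went the other way, at 0.17 (95% interval 0.053 to 0.29, adjusted p = 0.0116), a call that ended after quantile normalization (adjusted p = 0.246) and between batches 4 and 3 alone (0.094, adjusted p = 0.294). The Golgi proteins Gpr108 and Gpr89b gave -0.044 (adjusted p = 0.258) and 0.021 (adjusted p = 0.546), and Gpr108 passed the F-test (adjusted p = 0.0328) with a low mean in batch 4 (8.96 ± 0.13) and a call between batches 4 and 3 (-0.11, adjusted p = 0.0136).

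Adhesion GPCRs carry long extracellular domains that bind partners on neighbouring cells. Adgrl2, or latrophilin 2, a receptor that helps to specify synapses, had lowest, median and highest levels of 9.92, 10.18 and 10.63 in batches 2 and 3 and 10.01, 10.37 and 10.70 in batches 4 and 6. In all, 36 of 42 rats exceeded the median of the others, and the difference was 0.18 (95% interval 0.11 to 0.25, adjusted p = 7.29e-06). The fit of females alone did not call Adgrl2 (0.15, adjusted p = 0.0603). Adgrg6, known for its part in Schwann cell myelination, gave 0.22 (95% interval 0.056 to 0.39, adjusted p = 0.0189) and Adgra1, a brain receptor with no settled ligand, -0.12 (95% interval -0.22 to -0.019, adjusted p = 0.0385). The call for Adgrg6 ended after quantile normalization (adjusted p = 0.154), and both ended between batches 4 and 3 alone (adjusted p = 0.104 and 0.422). Adgrl4, an endothelial receptor that also served as the only named endothelium marker, gave 0.058 (95% interval -0.11 to 0.22, adjusted p = 0.578).
The 5 genes matched by name alone all passed the batch test. Glrx5, a mitochondrial glutaredoxin of iron-sulfur cluster assembly, had the smallest p of all members, with levels of 9.02, 9.50 and 9.86 in batches 2 and 3 and 8.65, 9.05 and 9.49 in batches 4 and 6. None of the 42 rats of batches 4 and 6 was above the median of the others, although the ranges overlapped, and the difference was -0.42 (95% interval -0.50 to -0.33, adjusted p = 1.71e-13). Gprin3, named for its regulation by G protein signalling, was higher, with values of 3.81, 4.70 and 6 and 4.25, 5.46 and 6.07 and a difference of 0.63 (95% interval 0.39 to 0.86, adjusted p = 4.64e-06). Glrx2 gave -0.19 (adjusted p = 0.00228), Glrx3 -0.11 (adjusted p = 0.00383) and Htra2 -0.084 (adjusted p = 0.0178). Between batches 4 and 3 alone Glrx2 was at -0.12 (adjusted p = 0.128), and in males only and females only none of these 3 was called (Glrx2 adjusted p = 0.11 and 0.0572, Glrx3 0.0531 and 0.202, Htra2 0.425 and 0.0517). Among the 41 other members, 13 were higher and 10 lower.

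No receptor gene passed the test for a difference between the sexes. With batch in the model, 0 of 46 members had an adjusted p under 0.05 in limma's test, beside 63 of 17250 genes (0.365%), and the lowest adjusted p of a member was 0.403. At an unadjusted p under 0.05 there were 4 members, beside 7.82% of all genes, and 1 of the 4, Gpr52, was higher in males, beside 4.41% of all genes. The 95% interval of the difference, male minus female, lay within 0.25 of 0 for 34 members and within 0.5 for 43, so larger sex differences were outside the interval for most of them. The intervals of Gprc5a, Htr1f and Chrnb4 were the ones that reached past 0.5.
The smallest p belonged to Adgrl4. Its lowest, median and highest levels were 7.03, 7.64 and 8.26 in males and 7.14, 7.88 and 8.67 in females. The ranges overlapped, with females reaching higher. The difference was -0.22 (95% interval -0.38 to -0.053, unadjusted p = 0.0103, adjusted p = 0.403), with the same sign within batches 2, 3, 4 and 6 (-0.37, -0.12, -0.25 and -0.21). Gpr153 had levels of 7.03, 7.86 and 8.39 in males and 7.13, 8.05 and 8.36 in females and a difference of -0.16 (95% interval -0.28 to -0.033, unadjusted p = 0.014, adjusted p = 0.454). Gpr52, a Gs-coupled orphan studied as a drug target for psychosis, had levels of 8.03, 8.54 and 8.90 in males and 7.95, 8.41 and 8.83 in females and a difference of 0.11 (95% interval 0.023 to 0.21, unadjusted p = 0.0146, adjusted p = 0.457), which was positive in all 4 batches (0.16, 0.12, 0.083 and 0.12).
The Golgi protein Gpr89b (8.67, 8.93 and 9.29 in males and 8.71, 8.96 and 9.27 in females) differed by -0.056 (95% interval -0.11 to -0.00055, unadjusted p = 0.0478, adjusted p = 0.63). Gpr146 (6.41, 7.04 and 7.55 in males and 6.36, 6.94 and 7.38 in females) came next, at 0.12 (95% interval -0.0098 to 0.24, unadjusted p = 0.0702, adjusted p = 0.686). In all, 8 of 46 members had the same sign of difference in the 4 batches that held both sexes. In limma's interaction test of whether the sex difference depended on batch, 0 members had an adjusted p under 0.05, beside 0.0% of all genes, and at an unadjusted p under 0.05 only Hrh1 was found (p = 0.00373), beside 2.38% of all genes. For Hrh1, male minus female was 0.12, 0.42, -0.19 and 0.091 in batches 2, 3, 4 and 6, with 3 females in batch 2.

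**Figure D5:**
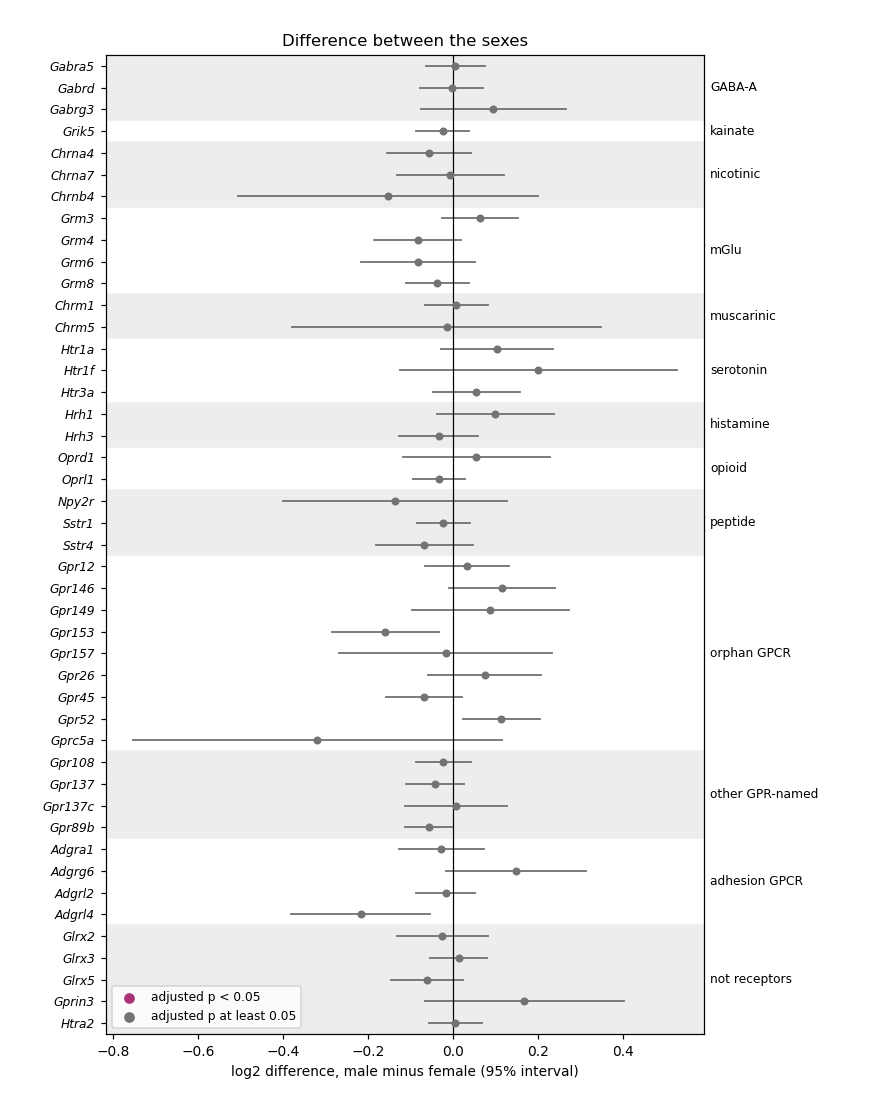
Male minus female difference of 45 members (x axis, log2, fitted with rat batch; y axis, members grouped by role); points are estimates and bars are 95% intervals. No member has an adjusted p under 0.05, and 33 of the 45 intervals shown lie within 0.25 of 0.

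Genes around the receptors were taken from 3 lists, of which few had a name. Over all genes, the batch difference was called for 55.4%, higher for 28.8% and lower for 26.6%, and the counts below stand beside these shares. For G proteins, effectors and regulators, 20 of 67 listed genes could be read, and 6 were higher and 4 lower in batches 4 and 6. The β-arrestin Arrb1, which desensitises GPCRs, had a batch difference of 0.52 (adjusted p = 6.38e-12) and the G protein subunit Gnb4 0.42 (adjusted p = 2.53e-12). The other β-arrestin, Arrb2, went the other way, at -0.10 (adjusted p = 0.000955), and the receptor kinase Grk2 was at -0.013 (adjusted p = 0.616). Itpr1, the inositol trisphosphate receptor downstream of Gq, was higher too, at 0.18 (adjusted p = 5.73e-07), while Gnas, the α subunit of Gs, was lower at -0.29 (adjusted p = 3.89e-12). In the list of transmitter synthesis and transport, 6 of 36 had a name and 2 were lower, namely Slc32a1 (above) and the enkephalin precursor Penk, at -0.33 (adjusted p = 1.40e-06). Of the scaffolds and auxiliary subunits, 4 of 27 had a name and all 4 passed: the synaptic scaffold Dlg2 at 0.41 (adjusted p = 1.10e-09), Ric3, a chaperone of nicotinic receptors, at 0.21 (adjusted p = 1.76e-05), Shank1 at 0.14 (adjusted p = 0.0095) and the AMPA receptor auxiliary subunit Cacng3 at -0.085 (adjusted p = 0.0288). Sex had no call in these 3 lists, with 0 genes at an adjusted p under 0.05, beside 0.365% of all genes. At an unadjusted p under 0.05 there were 4, all in the list of G proteins and effectors, beside 7.82% of all genes.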

How the data were processed

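The authors trimmed reads (cutadapt), estimated gene counts on Ensembl rat transcripts (RSEM), scaled them to a common upper quartile (DESeq2), filtered samples and genes, and deposited log2 of each scaled count plus 1. Tool versions are not given in the sources used here, and the labels name the build Rnor_6.0. Back-transformed values are whole numbers within 0.001%, but they are adjusted, so no count test was run, and sequencing depth was taken as unknown. Sex, batch and removal came from the sample labels.

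The study's eQTL tables served to pair identifiers with names and to tell which list, and for Gprc5a which region, a name came from. Their statistics were not used. The members, lists, batch split and tests were chosen with earlier results of these data known. The text gives batch values for the members, with the 12 smallest p over batches, the 5 smallest p for sex, the 5 largest and 5 smallest SDs, the 5 closest pairs and 13 family pairs in full, and 1 member, counted among the 46, is not reported here. The most negative pairs and the group of Chrm1, Grik5, Hrh3 and Gpr137 were chosen after their values were seen.

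Genes were fitted by lmFit and trended eBayes of limma 3.58.1 (R 4.3.3) on all 17250 genes, with sex and rat batch as factors and Benjamini-Hochberg adjusted p-values over all genes. The rat of batch 5 kept a coefficient of its own. The fits were first tested on simulated data. Separate high and low rats were called where a mixture of 2 normals lowered the Bayesian information criterion by more than 10, the means were over 4 SDs apart, with a gap of 1 log2 unit or more, and the smaller group held 10% of rats or more. Correlations used residuals on sex and batch, and their p-values are two-sided and adjusted over 1035 pairs. Promoters were matched by symbol, and where a symbol had several entries (3 members) the first was used. Python 3.11.15, numpy 2.4.6, scipy 1.17.1 and pandas 2.3.3 were used.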

Additional observations from a re-analysis of the deposited data

How the results depend on the processing

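No paired analysis was possible because the labels give the sexes and rat batches no shared replicate numbers. Alternatives were a pseudocount of 10, a minimum mean log2 value of 5, the rank-based inverse normal transformation, quantile normalization, median centring, no variance trend, the share of genes at 0 as a covariate, leaving out batch 5 or batch 2, other model terms, each sex alone, and batch 4 against batch 3. For sex, 0 members were called under each alternative run. For the F-test over batches, 25 members became 16 in males only and 11 in females only, fits with fewer rats. The count of members called higher in batches 4 and 6, 14, became 9 between batches 4 and 3, 9 in males only and 7 in females only, and the count called lower, also 14, became 8 in males only and 5 in females only. These are counts of each fit and can hold members not called in the full one, such as Oprl1 between batches 4 and 3 and Hrh1 in males only. Of the members called in the full fit, only Npy2r reversed, at -0.024 between batches 4 and 3 (the cause was not tested). Changes of sign in members that stayed uncalled were not counted as reversed. Gpr157, for one, was above 0 in the full fit but had a lower mean in batch 4 than in batch 3. Over all settings, batch differences of single members kept a call and its sign, or stayed uncalled with either sign, in 443 comparisons. The call was lost with the sign kept in 45, gained in 12, and a called member reversed in 1. The 167 correlated pairs became 21 with 5 principal components removed, and the cause was not tested. Quantile normalization and median centring shifted the median batch difference of all genes by less than 0.1, and higher genes made up 47.7% and 48.1% of calls, beside 52.0%. Depth is unknown here, so the precision of Chrm5, Chrnb4 and Htr1f, with few reads, is the least certain.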
